A study of Mus musculus with 65 samples.

Results

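The genes that set how a cell responds to adrenal corticosteroids were followed through 65 single neurons of the nucleus of the solitary tract (NTS), where signals from the viscera enter the brainstem. Hsd11b2, Nr3c2, Nr3c1 and H6pd were taken by name and are 4 of the 11875 genes in the table. Every neuron came from a male mouse of mixed strain that carried Hsd11b2-Cre and the Ai9 allele, whose red protein tdTomato is made once Cre has acted. Red neurons were picked by hand after papain digestion, and polyA RNA of each was read with Smart-Seq2, a full-length cDNA method for single cells, and Nextera XT. The 32 low-sodium neurons came from mice on a low-sodium diet and the 33 chow neurons from mice on standard chow. The protocol text names the Arc-ME as the tissue that was digested, whereas each neuron is labelled as NTS tissue, which was followed here. Because Cre under Hsd11b2 control marked the cells, the presence of Hsd11b2 is not independent of how they were picked, and tdTomato also marks a cell in which the gene was active only in the past. No animal is named for any neuron, so a diet counts as a single sample, its cells are not replicates, and diet cannot be told apart from animal. No test between diets was made, and each ± value is the SD over cells.

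Aldosterone and the glucocorticoids bind the same mineralocorticoid receptor, which Nr3c2 encodes, and glucocorticoids circulate at far higher levels. The enzyme 11-beta-hydroxysteroid dehydrogenase type 2, the product of Hsd11b2, inactivates glucocorticoids inside the cell and so leaves the receptor to aldosterone, in kidney and in the few brain neurons that make it, which are called HSD2 neurons. The glucocorticoid receptor is encoded by Nr3c1. H6pd encodes the hexose-6-phosphate dehydrogenase of the endoplasmic reticulum, which supplies NADPH there to the type 1 enzyme, and that enzyme makes active glucocorticoid again. The gene of the type 1 enzyme, Hsd11b1, was looked for but is not among the genes measured here.

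The neurons carried 50080 to 5318553 reads in the listed genes, with medians of 694163.5 in low-sodium and 602341 in chow neurons. The deposited log2(CPM + 1) values, where CPM are scaled read counts, do not share a common total: CPM summed to 1393471 to 2170050 in 9 neurons, all low-sodium, and to 754874 to 1147326 in the other 56. Diet differences that turn sign or move by over 1.5 times without these 9 neurons are given with and without them. All 65 neurons held at least 3 of the 8 pan-neuronal markers above 10 CPM and at least 3 of the 6 measured markers of HSD2 neurons. These 6 include Hsd11b2, above 0 in 65 neurons, and Nr3c2, in 62, so that count is not independent of how the neurons were picked. Of the others, the glutamate transporter gene Slc17a6 was above 0 in 65 neurons and the angiotensin receptor gene Agtr1a in 63. Lmx1b, a further marker, was above 0 in 15 neurons. At least 3 markers of a single non-neuronal type were above 10 CPM in 18 low-sodium and 19 chow neurons. The 10 astrocyte markers summed to 153.1 to 1963 CPM in low-sodium and 131.4 to 7445 CPM in chow neurons, and 1 of them, Aldoc, was above 0 in all 65. The 6 measured oligodendrocyte markers summed to 17.07 to 15000 CPM in low-sodium and 0 to 7616 CPM in chow neurons.

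Hsd11b2 was abundant in every neuron. It lies on the plus strand of chromosome 8 of the GRCm38 build, from 105518755 to 105523988, with 1840 exonic bases in the GENCODE M21 annotation. It was above 0 in 65 of 65 neurons, as were 10.7% of the 11875 genes, and its mean level of 8.87 ± 1.14 log2(CPM + 1) was above that of 98.5% of them. Per kilobase of exon it averaged 347.4 CPM and ranked 48 among 11149 genes with a known length. In low-sodium neurons the lowest level was 6.75, the median 8.84 and the highest 12.35 log2(CPM + 1). In chow neurons the lowest level was 6.42, the median 9.15 and the highest 10.03. The diets overlapped between 6.75 and 10.03, with only chow neurons below this range and only low-sodium neurons above it. Of those above, all but low-sodium neurons 4 and 25 had high CPM sums. The mean was 9.04 ± 1.25 in 32 low-sodium and 8.69 ± 1.01 in 33 chow neurons, a difference of 0.35, which was -0.10 without the 9 neurons of high CPM sums, so its direction rests on them. Those 9 neurons averaged 10.2.

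Nr3c2, the mineralocorticoid receptor gene, was detected in nearly all neurons. It lies on the plus strand of chromosome 8 from 76899442 to 77245012 with 6474 exonic bases, of which 247 (3.82%) overlap the opposite-strand gene Gm10649. It was above 0 in 62 of 65 neurons, or 95.4% (exact Clopper-Pearson 95% interval 87.1 to 99.0%), as were 22.3% of all genes in at least that many. Over all neurons it averaged 5.96 ± 2.02 log2(CPM + 1), and 18.88 CPM per kilobase. In low-sodium neurons the lowest value was 0, the median 6.90 and the highest 9.76. In chow neurons the lowest was 0, the median 5.69 and the highest 7.90. All chow neurons lay within the low-sodium range, and the highest values were those of low-sodium neurons with high CPM sums. The mean was 6.46 ± 2.24 in low-sodium and 5.48 ± 1.69 in chow neurons, a difference of 0.98, below the SD of either diet. That difference exceeded the differences of 96.2% of all genes. It was 0.27 without the 9 neurons, above those of 75.5%.

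A read of Nr3c2 was missing in 3 neurons. Low-sodium neuron 17 had 1936978 reads in all, so that 3 reads, the limit taken for a count of 0, correspond to 1.36 CPM. Low-sodium neuron 35 had 50539 reads and a limit of 44.8 CPM, and chow neuron 60 had 645541 reads and a limit of 4.09 CPM. All 3 expressed Hsd11b2, at 9.19, 7.72 and 9.24 log2(CPM + 1), and none held a read of Nr3c1 or H6pd. All 3 limits lay under the median Nr3c2 level of 87.2 CPM, that of low-sodium neuron 35 by the least.

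**Figure D1:**
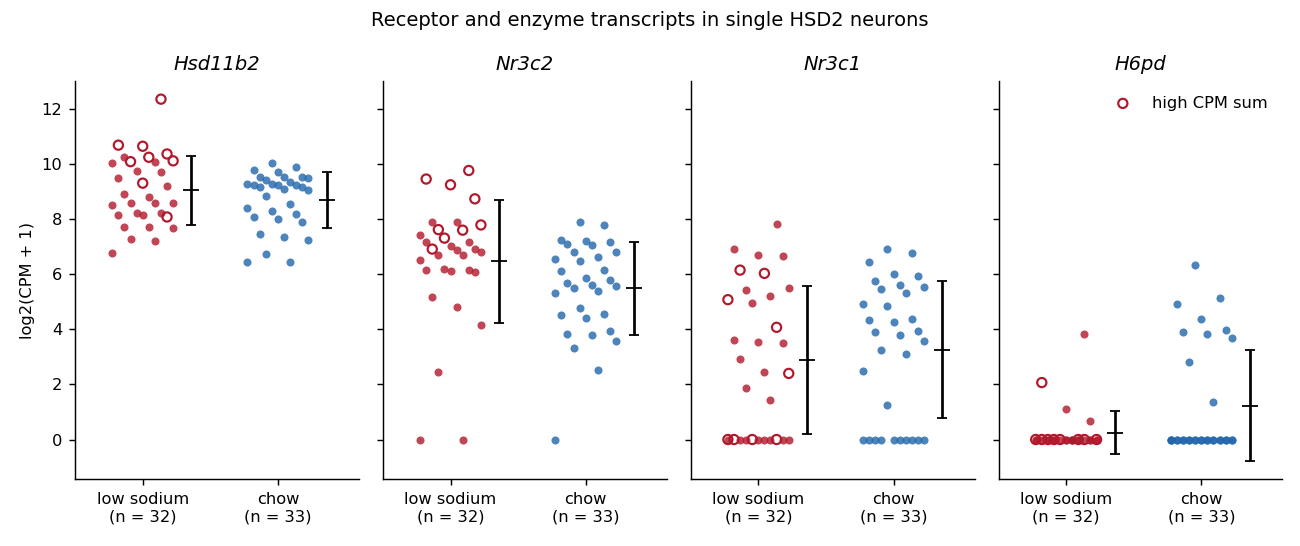
Level of each gene as log2(CPM + 1) in every neuron, low-sodium left of chow, with bars for the mean and SD over cells and open circles for the 9 low-sodium neurons with high CPM sums. Hsd11b2 is above 6 in every neuron, Nr3c2 is at 0 in 3, Nr3c1 is at 0 in 22 and H6pd is at 0 in 51.

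Nr3c1, the glucocorticoid receptor gene, was present in some neurons and undetected in others. It lies on the minus strand of chromosome 18 from 39410545 to 39519421 with 7684 exonic bases. It was above 0 in 43 of 65 neurons, or 66.2% (interval 53.4 to 77.4%), and 59.0% of all genes were above 0 in at least as many. The mean over all neurons was 3.08 ± 2.57 log2(CPM + 1) and 3.565 CPM per kilobase. It was detected in 20 of 32 low-sodium neurons, with a lowest value of 0, a median of 2.70 and a highest of 7.81. It was detected in 23 of 33 chow neurons, with a lowest value of 0, a median of 3.89 and a highest of 6.90. All chow neurons lay within the low-sodium range, and low-sodium neuron 15, at 7.81, lay above every chow neuron. The mean was 2.88 ± 2.69 in low-sodium and 3.27 ± 2.48 in chow neurons, a difference of -0.38, and -0.29 without the 9 neurons.

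The split in Nr3c1 was also seen where reads were many. Among the 22 neurons with over 1000000 reads, 12 held Nr3c1, at 1.36 to 223 CPM, and 10 held none. In those 10 the limit of a count of 0 lay between 0.481 and 1.81 CPM. Of the 12, low-sodium neuron 14 and chow neuron 47 held 2 reads each, fewer than the 3 reads taken as that limit. How many of all genes are split in this way among the 22 neurons was not counted. Low-sodium neuron 16 had 813 reads of Nr3c2 and 0 of Nr3c1, and low-sodium neuron 18 had 1049 and 0. Low-sodium neuron 15, of similar depth, had 840 reads of Nr3c2 and 1086 of Nr3c1, and low-sodium neuron 12 had 596 and 680. Among deeply read neurons, all of which held Hsd11b2, Nr3c1 thus ran from below such a limit to 223 CPM. These are reads without molecular identifiers in the sources used here, so the limits and intervals cover counting error only. The level of Nr3c1 moved with the number of genes above 0 in a neuron (Spearman rho 0.43 over 65 neurons) and with the mean of the 10 astrocyte markers (0.25), and their part in the split was not tested.

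H6pd was the sparsest of the 4 genes. It lies on the minus strand of chromosome 4 from 149979475 to 150009023 with 5236 exonic bases. It was above 0 in 14 of 65 neurons, or 21.5% (interval 12.3 to 33.5%), and 93.8% of all genes were above 0 in at least as many. It was detected in 4 of 32 low-sodium neurons (12.5%, interval 3.51 to 29.0%), of which 3 held a single read and the fourth 8 reads. It was detected in 10 of 33 chow neurons (30.3%, interval 15.6 to 48.7%), with 1 to 35 reads and a highest level of 6.34 log2(CPM + 1). Most neurons of both diets were at 0, and the intervals cover counting over cells only. The mean was 0.24 ± 0.78 in low-sodium and 1.22 ± 2.01 in chow neurons, a difference of -0.98 that was also -0.98 without the 9 neurons. The share of neurons with H6pd was lower by 17.8 percentage points in low-sodium neurons. Of the 1244 genes detected in 10 to 18 neurons, 14.5% had a share difference as low or lower, and the median of these genes was -5.49 points. Thinned to 50000 reads per neuron, H6pd remained above 0 in 1 low-sodium and 3 chow neurons, a level close to single reads.

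No gene of the 4 had a diet difference of 1 or more on the log2(CPM + 1) scale, a 2-fold step, in either direction. Of all 11875 genes, 3.61% were at or above 1, 6.55% at or below -1 and 10.2% beyond it in either direction, and the median difference of all genes was -0.12. With the 9 neurons of high CPM sums left out, again none of the 4 reached the step, which 2.84% of all genes passed upward, 6.27% downward and 9.11% in either direction. Nr3c2 and H6pd fell just short of the step, at 0.98 and -0.98. Nr3c2 passed it under some other settings, at 1.07 with size factors by the median of ratios, at 1.19 without neurons under 200000 reads, at 1.21 as a difference of medians and at 1.30 when CPM were averaged before the log2 was taken, but lay at 0.11 without the neurons that held non-neuronal markers. H6pd passed it downward at -1.01 with neurons rescaled to a common CPM sum, at -1.20 without neurons under 200000 reads, at -1.55 without the neurons that held non-neuronal markers, at -1.61 with 0.1 CPM added and at -2.32 when CPM were averaged first. It lay at -0.39 with 10 CPM added and at -0.40 when thinned.

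Set per kilobase of exon, Hsd11b2 lay above each of the other 3 genes in all 65 neurons. Its median excess over Nr3c2, as a difference of log2(CPM per kilobase + 1), was 4.23 over 65 neurons, and that over Nr3c1 was 6.58. Nr3c2 lay above Nr3c1 per kilobase in 52 neurons, below it in 10 and level with it at 0 in 3. Nr3c1 was above H6pd in 40 neurons, below it in 5, and both were at 0 in 20. The order was therefore Hsd11b2, Nr3c2, Nr3c1 and H6pd. The first step holds in every neuron. The step between the receptors does not hold in every neuron, and the step between Nr3c1 and H6pd could not be seen in the 20 neurons without either.

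The receptors were nested, in that each of the 43 neurons with Nr3c1 also held Nr3c2. Both receptors were detected in 20 low-sodium and 23 chow neurons, and Nr3c2 without Nr3c1 in 10 low-sodium and 9 chow neurons. Nr3c1 without Nr3c2 was found in 0 of 65 neurons, which allows a share of up to 5.52%. All 14 neurons with H6pd held Nr3c2 and 12 of them held Nr3c1, so that 4 low-sodium and 8 chow neurons held all 4 transcripts. With Nr3c2 above 0 in 62 neurons, the sparser genes could have occurred without it in the other 3 only.

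The ratio of Nr3c2 to Nr3c1 within a neuron, given as the difference of their log2(CPM + 1) values, does not depend on the total to which the neuron was scaled where both are well above the added 1 CPM. In the 19 neurons with Nr3c2 alone it equals the Nr3c2 level and so keeps that scale. Over 65 neurons its median was 2.90 and it ran from -2.16 to 7.88, with Nr3c2 higher in 49, Nr3c1 higher in 11 and no difference in 5. The median was 1.73 with 10 CPM added in place of 1 and 4.39 with each neuron thinned to 50000 reads. In low-sodium neurons the lowest ratio was -0.83, the median 3.69 and the highest 7.88. In chow neurons the lowest was -2.16, the median 1.89 and the highest 7.06. The diets overlapped over most of this range. The mean ratio was 3.58 ± 2.97 in low-sodium and 2.22 ± 2.72 in chow neurons, a difference of 1.36, under the SD of either. All 9 low-sodium neurons with high CPM sums had more Nr3c2, with ratios of 3.31 to 7.79. Without them the low-sodium mean was 2.78 and the difference 0.56, and without the neurons that held non-neuronal markers the difference was 0.37. In the 43 neurons with both receptors the median ratio was 1.48.

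Reads of the receptors gave the same comparison with its counting error. The longest identical run between any transcripts of Nr3c2 and Nr3c1 is 17 bases, and no run of 20 bases is shared. Nr3c2 supplied a median of 94.0% of the reads of both receptors in low-sodium neurons (86.6% without the 9 neurons) and 81.3% in chow neurons. Given the exon lengths, equal levels would give 45.73%. The exact 95% interval lay wholly above this share in 24 of 30 low-sodium and 18 of 32 chow neurons that held a read of either receptor. It spanned the share in 6 low-sodium and 12 chow neurons. Without the 9 neurons of high CPM sums, 15 of 21 low-sodium neurons were above it and 6 spanned it. An interval is wider the fewer receptor reads a neuron holds. Among those that spanned the share, chow neuron 39 held 1 such read and low-sodium neuron 7 held 6, whereas low-sodium neuron 15 held 1926. Fewer than 200000 reads in all were found in 2 low-sodium and 8 chow neurons. The part of depth in these counts by diet was not tested.

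The interval lay wholly below equality in no low-sodium neuron and in 2 chow neurons. Chow neuron 20 had 36 reads of Nr3c2 and 109 of Nr3c1, a share of 24.8% (interval 18.0 to 32.7%), and chow neuron 55 had 33 and 156, a share of 17.5% (interval 12.3 to 23.6%). Both held markers of other cells. In chow neuron 20 all 10 astrocyte and all 6 measured oligodendrocyte markers were above 10 CPM, with sums of 4127 and 7616 CPM, against medians of 517.8 and 227.2 CPM over chow neurons. Chow neuron 55 had 8 astrocyte markers above 10 CPM, with a sum of 1565 CPM, and the highest sum of the GABA synthesis genes Gad1 and Gad2, 728.2 CPM, against a median of 0. Of the other neurons with at least 8 astrocyte markers above 10 CPM, low-sodium neurons 9 and 30 had Nr3c2 shares of 54.3% and 41.6%. Those of chow neurons 18, 35, 36 and 21 were 33.3%, 52.2%, 52.0% and 83.3%. The medians were 94.03% over low-sodium and 81.25% over chow neurons. Some neurons with high sums of markers of other cells had Nr3c2 shares above the median of their diet. Low-sodium neuron 45, with the highest oligodendrocyte sum of 15000 CPM, had 54 reads of Nr3c2 and 0 of Nr3c1. Chow neuron 21, with the highest astrocyte sum of 7445 CPM, had a Nr3c2 share of 83.3% of 18 reads (interval 58.6 to 96.4%), close to the chow median. Chow neuron 59, with a sum of Gad1 and Gad2 of 614.2 CPM, had 52 reads of Nr3c2 and 0 of Nr3c1. The part of RNA from other cells in the receptor balance was not tested.

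**Figure D2:**
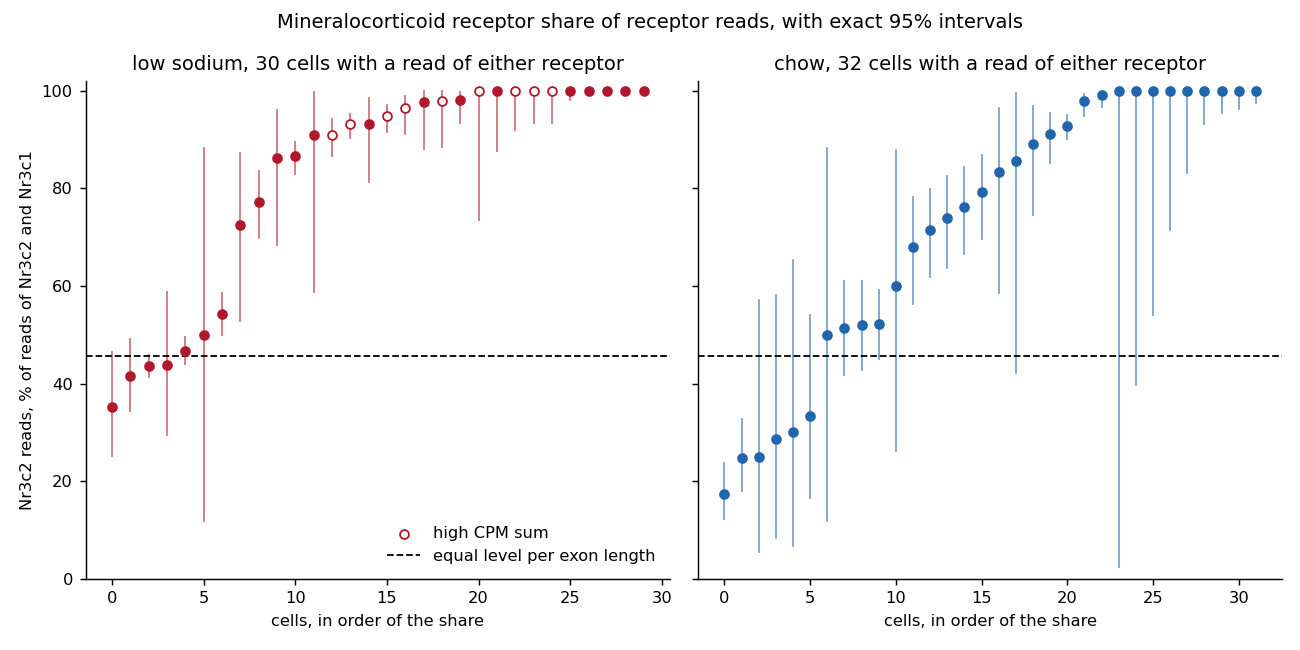
Share of Nr3c2 among the reads of both receptors in each neuron with a read of either, in rising order, low-sodium left and chow right, with exact 95% intervals and a dashed line at the share of 45.73% that equal levels per exon length would give. The interval lies wholly above the line in 24 low-sodium and 18 chow neurons and wholly below it in 0 low-sodium and 2 chow neurons.

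Across the 65 neurons Hsd11b2 varied together with Nr3c2 to a modest degree and hardly with the other 2 genes. The points share libraries, a common scale within each neuron and depth, so the coefficients describe these neurons and carry no test. Spearman's rho of Nr3c2 with Hsd11b2 was 0.37 (Pearson's r 0.27), and 1.87% of 8492 genes above 0 in at least 33 neurons had a rho as high or higher. It was 0.36 in 32 low-sodium and 0.42 in 33 chow neurons. In the 23 low-sodium neurons without high CPM sums it was -0.04, so within that diet the relation rests on the 9 neurons. Hsd11b2 and Nr3c2 each moved with the CPM sum of a neuron, with rho of 0.44 and 0.46, and given depth and CPM sum their partial rank correlation was 0.30. Within a diet that partial value was 0.09 in low-sodium and 0.50 in chow neurons. With each neuron rescaled to the same CPM sum rho was 0.20.

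Nr3c1 had a rho of -0.15 with Hsd11b2, which 64.4% of the 8492 genes above 0 in at least 33 neurons reached or exceeded, and H6pd one of 0.04. The median rho of those 8492 genes with Hsd11b2 was -0.09, and their central 95% ran from -0.37 to 0.34, a range that holds both. H6pd, at 0 in 51 neurons, is too sparse to be among those genes. Nr3c1 had a rho of 0.13 with Nr3c2 and of 0.24 with H6pd, and Nr3c2 one of 0.03 with H6pd. In the 28 neurons without non-neuronal markers the rho of Nr3c1 with Hsd11b2 was 0.25, of the other sign. Hsd11b2 itself moved with the mean of 8 pan-neuronal markers (rho 0.55) and against the mean of the 10 astrocyte markers (-0.35), with values of -0.08 in low-sodium and -0.57 in chow neurons for the astrocyte markers. The part of RNA from other cells in these relations was not tested.

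**Figure D3:**
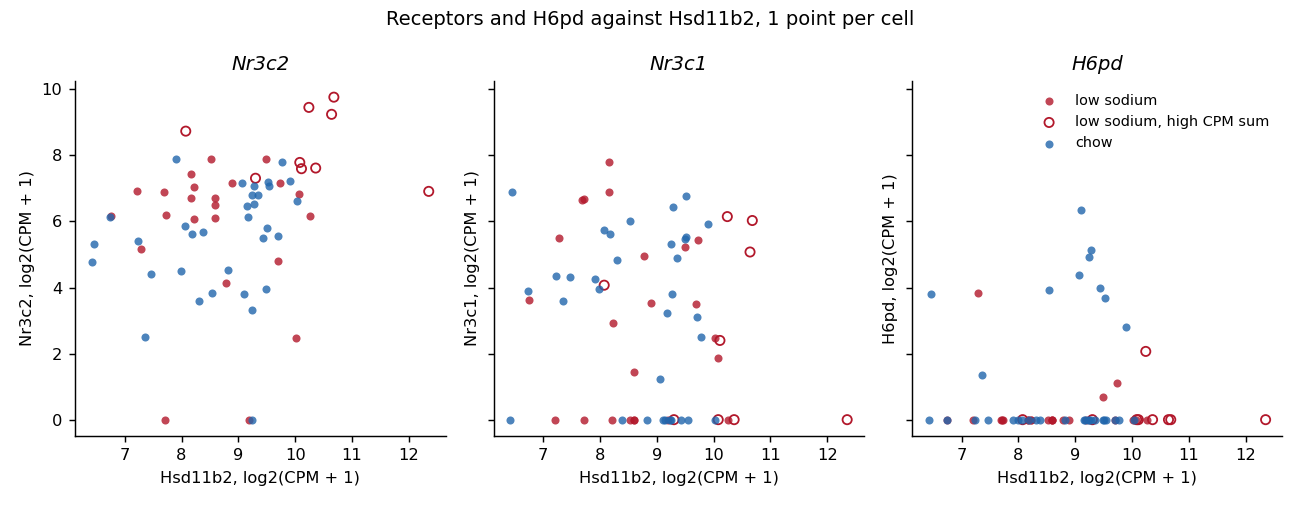
Nr3c2, Nr3c1 and H6pd against Hsd11b2, all as log2(CPM + 1), with 1 point per neuron, red for low-sodium, open red circles for low-sodium neurons with high CPM sums, and blue for chow. Most open circles lie toward the upper right of the Nr3c2 panel (rho 0.37 over all neurons, 0.19 without the open circles). Low-sodium neuron 49, an open circle, has a Hsd11b2 level of only 8.07. The points at 0 in the other panels are the 22 neurons without Nr3c1 and the 51 without H6pd.

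Genes whose levels followed Hsd11b2 most closely were ranked by Spearman's rho over the 65 neurons among 8086 named genes detected in at least 33. The closest was Cplx1, which encodes complexin, a regulator of synaptic vesicle fusion, with a rho of 0.77. Next came Ndrg4 with 0.73, Wdr6 with 0.68, Idh3a, a subunit of mitochondrial isocitrate dehydrogenase, with 0.66, and Faim2, an inhibitor of apoptosis in neurons, with 0.66. With those 9 neurons left out Cplx1 (0.81) and Ndrg4 (0.67) ranked 1 and 2, whereas Idh3a ranked 6, Wdr6 12 and Faim2 16. The lowest values were those of Nvl, Pfas and Hnrnpa0, each at -0.58. For Nr3c2 the closest genes were Celf3, an RNA-binding protein gene, at 0.64, and Cngb1, a cyclic nucleotide-gated channel subunit gene, Klhl11, Fam234b and Iqsec3 at 0.61 each, while Shfm1 and Set (-0.72 each) and Pdcd5 (-0.67) were lowest. Leaving them out, these 5 closest genes of Nr3c2 had rho of 0.43 to 0.52, with Celf3 at rank 7, Fam234b at 8, Klhl11 at 13, Iqsec3 at 31 and Cngb1 at 67. For Nr3c1 the closest were Ranbp10 at 0.62, then Hps4 at 0.54, Ppp2r5e and Styx at 0.50 and the Polycomb gene Cbx7 at 0.49, which without the 9 neurons had ranks of 1, 9, 15, 5 and 3 in that order. Its lowest were Maea and Apeh at -0.34 and Rnf44 at -0.31.

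Other parts of the pathway were described through 6 lists, each by the number of genes past the 2-fold step and by the median difference between diets, beside the median of -0.12 over all genes, of which 3.61% were at or above 1 and 6.55% at or below -1. Of the steroid receptor family, 8 of 9 were measured, 0 were at or above 1 and 1 was at or below -1, with a median of -0.29. That 1 was the estrogen-related receptor gene Esrra, an orphan receptor, with a mean of 2.08 in low-sodium and 3.08 in chow neurons, a difference of -1.002 that was -0.70 without the 9 neurons. The progesterone receptor gene Pgr, in 47 neurons, differed by -0.18 (-0.04 without the 9 neurons) and Esrrb by 0.67 (0.29). Of the 8 measured receptor genes, Nr3c2 was detected in the most neurons. It had the largest positive difference with all neurons, whereas without the 9 neurons Esrrb, at 0.29, lay just above its 0.27.

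The chaperones that hold steroid receptors ready for hormone were detected widely, with 16 of 17 measured and 10 of them in all 65 neurons. None was past the step in either direction, and the median difference was -0.27, and -0.11 without the 9 neurons. The genes of the HSP90 proteins, which bind the unliganded receptor, differed by -0.26 (Hsp90aa1) and -0.46 (Hsp90ab1), that of the partner chaperone Hspa8 by -0.38, that of the ubiquitin ligase Stub1 by -0.28 and that of the adaptor St13 by -0.47, which was 0.01 without the 9 neurons. Hspa4 was highest at 0.94, and 0.67 without the 9 neurons. Fkbp5, an HSP90 partner and a well-known glucocorticoid target chosen here after its values were seen, averaged 6.36 in low-sodium and 6.01 in chow neurons, a difference of 0.35, and 0.60 without the 9 neurons.

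Of the coregulators that receptors recruit on DNA, 30 of 31 were measured, 3 were at or above 1, 1 was at or below -1 and the median was -0.05, which turned to 0.05 without the 9 neurons. These counts of 30 stand beside the shares of 3.61% and 6.55% of all genes. The 3 included the acetyltransferase gene Ep300 at 1.29 and Sin3a, a corepressor scaffold gene named after its values were seen, at 1.06. The low one was Tbl1x, a subunit of the corepressor complex, at -1.09. In the other 56 neurons Ep300 was at 0.21 and Sin3a at 0.78, and the only gene at or above 1 was Pias1, a SUMO ligase gene, at 1.08. Tbl1x was then at -1.07 and Pias2, a gene of the same ligase family, at -1.39. These 2 ligase genes were likewise named after their values were seen. Ncor1, Tsg101, Hdac3 and Smarca2, each in 64 or 65 neurons, differed by 0.22, 0.03, -0.51 and -0.43, and without the 9 neurons by -0.09, 0.25, -0.15 and -0.41.

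H6pd belongs to the list of the 11-beta reductase and its NADPH supply, of which 4 of 5 genes were measured. None was at or above 1, 1 was at or below -1, and the median was -0.93. Slc37a4, which encodes the transporter that brings glucose-6-phosphate to H6pd in the endoplasmic reticulum, was in 16 low-sodium and 24 chow neurons. It averaged 2.53 in low-sodium and 4.25 in chow neurons, a difference of -1.71, and -1.95 without the 9 neurons. G6pc3, which encodes a phosphatase that uses the same sugar phosphate, differed by -0.88 and was detected in 61 neurons. Por, the gene of the reductase that passes electrons to cytochrome P450 enzymes, lay the other way at 0.41. With 6.55% of all genes at or below -1, 1 of 4 is a count too small to set the list apart.

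Of the other steroid enzymes and carriers 13 of 31 were measured, with 0 at or above 1, 3 at or below -1, where 6.55% of all genes lay, and a median of -0.62, which was -0.22 without the 9 neurons. The 3 were hydroxysteroid 17-beta dehydrogenase genes: Hsd17b4, which also acts in peroxisomal fatty acid breakdown, at -1.67, Hsd17b7, which also acts in cholesterol synthesis, at -1.35, and Hsd17b12, which also acts in fatty acid elongation, at -1.22. Hsd17b4 averaged 3.16 in low-sodium and 4.83 in chow neurons and was detected in 21 low-sodium and 28 chow neurons. Without the 9 neurons the 3 were at -1.81, -1.67 and -1.003, and Tspo, a mitochondrial carrier gene named after its values were seen, joined them at -1.02. Hsd17b10 differed by -0.72, the electron carrier gene Fdx1 by -0.46 and Cyp46a1, the neuronal cholesterol 24-hydroxylase gene, by 0.78, and without the 9 neurons by -0.20, -0.17 and 0.50.

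The last list was built around the epithelial sodium channel, the classical target of aldosterone in kidney. It also holds genes of the WNK kinases and of kinases downstream of them, which need not act on that channel. Of the genes on the list 11 of 15 were measured, 1 was at or above 1, 0 were at or below -1 and the median was 0.17, and 0.06 without the 9 neurons. The 1 was the kinase gene Wnk3 at 1.15, and 1.34 without the 9 neurons, with means of 4.72 in low-sodium and 3.57 in chow neurons. Wnk1 differed by 0.79 (0.32 without the 9 neurons), Wnk2 by 0.91, Stk39, whose kinase acts downstream of the WNK kinases, by -0.81, and the ubiquitin ligase genes Nedd4 and Nedd4l by 0.17 and -0.08 (0.06 and -0.49 without them). Stk39 was at -1.03 in the other 56 neurons. Sgk1, the kinase gene that aldosterone induces in kidney, chosen here after its values were seen, was detected in 13 low-sodium and 15 chow neurons and averaged 1.97 in low-sodium and 2.65 in chow neurons, a difference of -0.68. The genes of the channel subunits were on the list but not among those measured.

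**Figure D4:**
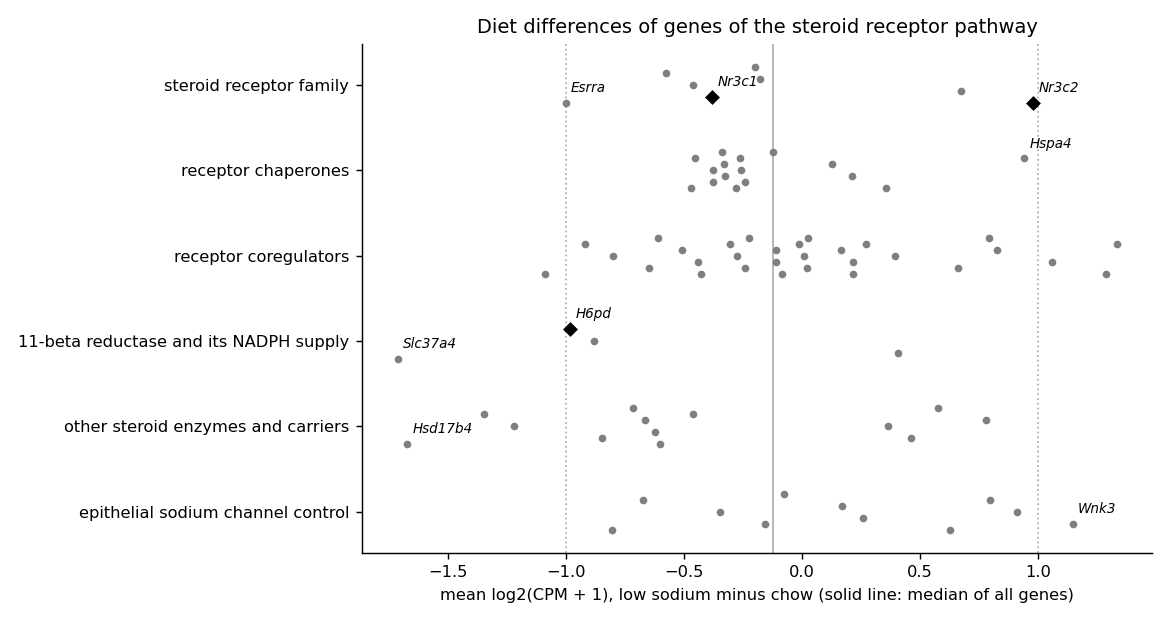
Difference of mean log2(CPM + 1), low-sodium minus chow, for each measured gene of the 6 lists, with diamonds for Nr3c2, Nr3c1 and H6pd, dotted lines at -1 and 1 and a solid line at the median of all genes, -0.12. Most genes lie between the dotted lines, with Ep300 at 1.29, Slc37a4 at -1.71 and Hsd17b4 at -1.67 among those outside.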

How the data were processed

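The authors deposited 1 table of log2(CPM + 1) per gene and neuron. The submitters' processing notes list featureCounts 1.4.6, HISAT2 2.0.5, SAMtools 0.1.19, Picard 2.5.0 and bcl2fastq, and as builds GRCm38 and mm10. Their settings and annotation, filters on cells and the total used for scaling were not given in the sources used here. Of 12015 lines, each above 0 in at least 5 neurons, 121 share 60 names and 19 carry numbers, and these 140 stayed in totals only.

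CPM were computed by undoing the log2. In every neuron 100% of the values up to 20 steps were whole multiples of the smallest step within 0.1 steps, and this step stands for 1 read. A read stood for 0.1605 to 16.1 CPM (median 1.58), and lower levels can be missed. Exon lengths and positions came from GENCODE M21. A limit of 1200000 on the CPM sum, set after the values were seen, separates the 9 neurons. Detection means above 0, and share intervals are exact (Clopper-Pearson, 95%).

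Each diet is 1 sample, so no test was run, and a difference of 1 on the log2 scale serves as the step. Neurons differ in depth, the added 1 CPM shrinks differences between low values, and neurons at 0 enter each mean. The genes named were the 4 genes, the 4 of highest level and 3 of largest difference in each list, where the text needs them, and the 5 closest and 3 least close to each of Hsd11b2, Nr3c2 and Nr3c1 by Spearman's rho, and some genes that this rule took are left out of the text. The 4 genes, lists and markers were chosen with earlier results of these data known. Whether reads were counted by strand is not given in the sources used here, so reads of Gm10649 within Nr3c2 exons cannot be told apart. Other settings were pseudocounts of 10 and 0.1 CPM, size factors, thinning to 50000 reads and leaving out neurons. The exact recovery of low read counts, and the coefficients, were tested on simulated data. The deposited values follow a grid of 0.01 on a log2 scale. CPM are thus rounded by up to about 0.35%, and larger read counts are approximate. Python 3.11.15, NumPy 2.4.6, pandas 2.3.3, SciPy 1.17.1 and Matplotlib 3.10.9 were used.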

Additional observations from a re-analysis of the deposited data

How the results depend on the processing

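Of 159 values under other settings, 147 stayed within a tolerance around the value reported and 12 moved. The tolerance was 1 SD over cells for diet differences and ratios, the exact interval for shares and 1.5 times for counts. For rho it was the 95% range that Fisher's transform gives for 65 points, used as a tolerance and not as a test. Each diet difference was smaller than its SD, so even a change of sign counted as staying. The Nr3c2 difference, 0.98 as reported and 0.11 without neurons holding non-neuronal markers, also counted as staying. The tally therefore cannot show that the diet differences or the receptor ratio are stable. The share of neurons with Nr3c1 was 52.31% at a detection limit of 10 CPM and 41.54% with neurons thinned to 50000 reads, and that with H6pd was 6.154% when thinned. The rho of Nr3c2 with Hsd11b2 was -0.04455 in low-sodium neurons without high CPM sums, a setting added after the data were seen, and that of Nr3c1 was 0.2496 without neurons holding non-neuronal markers. With size factors, which moved the median of all genes from -0.12 to -0.06, the steroid receptor family had 1 gene at or above 1 and 0 at or below -1, and the chaperones 1 at or above 1. Without the 9 neurons the receptor family had 0 at or below -1, the coregulators 1 at or above 1 and 2 at or below -1, and the sodium channel list 1 at or below -1. The cause was not tested.

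Within the SD, the Hsd11b2 difference turned to -0.10 without the 9 neurons, -0.22 without neurons holding non-neuronal markers and -0.31 as a difference of medians, and that of Nr3c1 to 0.16 as the log2 ratio of mean CPM. The H6pd difference ran from -2.32 (log2 ratio of mean CPM) to 0 (medians). Leaving out each neuron in turn, the differences ran from 0.2448 to 0.4255 for Hsd11b2, 0.8084 to 1.188 for Nr3c2, -0.5419 to -0.2695 for Nr3c1 and -1.098 to -0.8218 for H6pd. The median ratio of the receptors ran from 2.776 to 3.018 and its diet difference from 1.224 to 1.514. The rho with Hsd11b2 ran from 0.3397 to 0.4074 for Nr3c2, -0.186 to -0.1091 for Nr3c1 and 0.009381 to 0.09824 for H6pd. No paired analysis was possible because the neuron numbers only name cells and no test was run. Depth limits Nr3c1 and H6pd most, since a read is worth up to 16.1 CPM.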
